A study of Mus musculus with 48 samples.

Results

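Skin RNA of 8 mice given the DGAT1 inhibitor Cpd1 was compared with that of the 8 vehicle mice of the same study, Study 1, across all genes of the array. The members were taken from the sample titles alone, which name Study1 with Cmpd1 or with Vehicle, and they make up 16 of the 48 arrays of the series, with 1 array per mouse. The third group of Study 1, with 8 mice, received Cpd2, and the remaining arrays are those of Study 2 (vehicle, Cpd2 and Cpd6) and Study 4 (vehicle, Cpd6 and Cpd18), with 4 mice per group. The study asked which transcripts follow the atrophy of sebaceous glands seen with some DGAT1 inhibitors. It classes Cpd2 and Cpd6 as skin-positive and Cpd1 and Cpd18 as skin-negative, so that Cpd1 stands for a DGAT1 inhibitor without that lesion. For Study 1 it also reports a much lower level of Cpd1 than of Cpd2 in skin, also relative to potency. How far Cpd1 inhibited DGAT1 in the skin of these mice is not given.

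All mice used here carry the label C57BL/6 as genotype, with an age of 8 weeks, and the label of the tissue is dorsal skin, with 14 days as the length of treatment. Per the study's methods these were male mice made obese on a high-fat diet, the compounds were given orally in methylcellulose, and the vehicle group received methylcellulose alone. The obesity and the diet are therefore shared by the Cpd1 mice and their controls. Biopsies could come from the back, the belly or both according to the methods, whereas each array is labelled as dorsal. No label gives a dose, and for its histology after the same length of treatment the study names a lower dose of Cpd1 than of Cpd2, without saying whether the mice of the arrays are the same. Nothing in the labels ties a mouse to a litter, cage or array plate.

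DGAT1 joins the last fatty acid to diacylglycerol and so makes triglyceride, a step it shares with DGAT2. In skin it is prominent in the sebaceous gland, whose cells fill with triglycerides, wax esters and cholesterol esters and release them whole as sebum, and mice without DGAT1 are known for atrophic sebaceous glands and loss of hair. Skin is a mixed tissue of epidermis, hair follicles, glands, dermal fibroblasts, vessels, fat and a sheet of muscle, and the composition differs between body sites and between phases of the hair cycle. Hox genes, which encode the transcription factors that mark position along the body axis in the embryo, stay active in adult dermal fibroblasts in patterns that differ between body sites.

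The medians of the 16 arrays lay between 26.39 and 28.46 intensity units. Of the skin markers looked up, Krt1, Krt10 and Lor of the epidermis, Scd1 and Awat1 of the sebaceous gland, Adipoq, Cidec and Lep of fat, Acta1 and Myh4 of skeletal muscle and Col1a1 and Dcn of fibroblasts were all well above the array median in each of the 16 mice, with Krt10 between 12.14 and 12.73 on the log2 scale and Acta1 between 12.11 and 13.26. Lower were Plin1 of fat, from 5.14 to 7.37, and the sebaceous receptor gene Mc5r, which at 4.0 to 5.04 lay around the array median. Apart from Mc5r, these markers of skin were present, and those of fat and muscle with them in every biopsy. Hair follicle keratins varied most, with Krt27 from 2.76 to 12.98 among the 16 mice. Vehicle replicate 4 stood apart from its group, with a median correlation of 0.964 with the other vehicle mice, and it was lowest of the vehicle mice in 29 and highest in 11 of the 45 gene lists that were followed. Fewer cells of a type and less RNA per cell cannot be told apart in such samples.

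At the level of the whole array few probesets differed. With limma, 94 of 28789 tested probesets passed an adjusted p of 0.05, which is 0.327%, and 3794 had an unadjusted p under 0.05. Of the 94, 71 were higher with Cpd1 (0.247% of those tested) and 23 lower (0.0799%), with log2 differences from 0.30 to 3.18 among the higher ones and from 0.30 to 2.05 in size among the lower ones. The higher probesets named 62 genes and the lower ones 18, and 14 named none. In 51 of the probesets tested, 0.177%, the 8 Cpd1 mice lay wholly on 1 side of the 8 vehicle mice, 36 above and 15 below, and 31 of these were among the 94. With 1 probeset per gene, 72 of 15320 genes passed, or 0.47%, and the median difference over all genes was 0.01. The count depended on the mice used. When each mouse was left out in turn it lay between 42 without Cpd1 replicate 4, with 39 of the 94 among them, and 202 without vehicle replicate 8, with 93 among them. It was 56 or lower in 8 of these 16 fits and 165 without vehicle replicate 4, and 38 of the 94 were called in all of them.

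**Figure D1:**
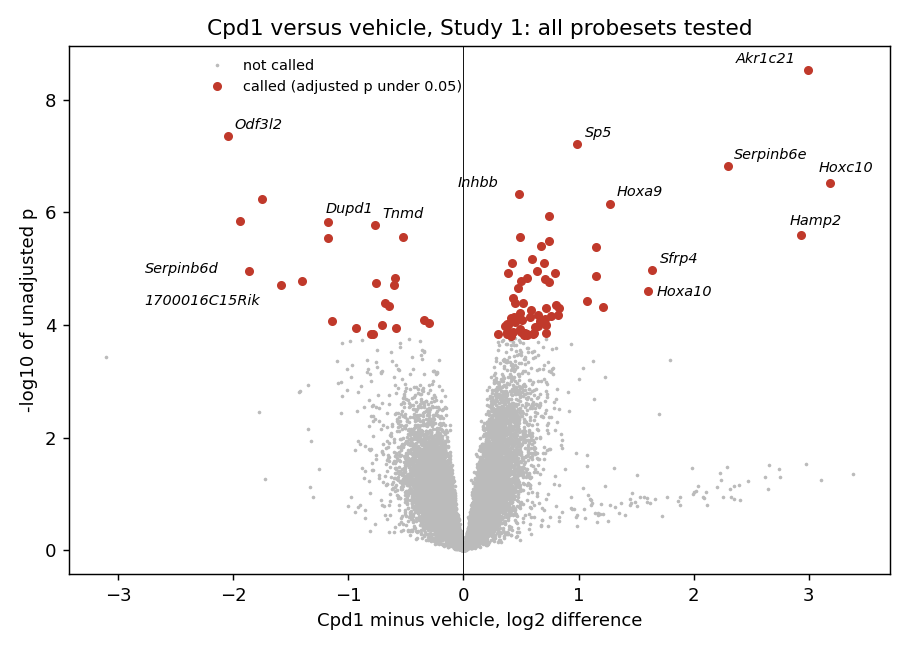
Log2 difference between the 8 Cpd1 and the 8 vehicle mice of Study 1 (horizontal) against the negative log10 of the unadjusted p of limma (vertical), with 1 point per tested probeset and the 94 probesets that passed an adjusted p of 0.05 in red. The largest differences among the passing probesets belong to Hoxc10, Akr1c21, Hamp2 and Serpinb6e on the higher side and to Odf3l2 on the lower side, while grey points with large differences to the right have wide spreads between mice.

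The largest increase was that of a Hox gene, and the Hox genes that passed all rose. Hoxc10 lay between 6.36 and 7.67 in the Cpd1 mice with a median of 7.18, and between 2.72 and 5.66 in the vehicle mice with a median of 3.69. No vehicle mouse reached the lowest Cpd1 mouse. The difference was 3.18 ± 0.46 (SE, n = 8 and 8), or 9.07-fold, with an adjusted p of 0.00174 by limma. Hoxa10 ranged from 8.54 to 8.83 (median 8.69) with Cpd1 and from 5.84 to 8.04 (median 6.95) with vehicle, so that the Cpd1 mice were nearly alike and the vehicle mice spread over more than 2 log2 units. It rose by 1.6 ± 0.31 (adjusted p = 0.0185). Hoxa9 ranged from 5.76 to 6.19 (median 6.00) against 4.34 to 5.34 (median 4.61), a rise of 1.27 ± 0.20 (adjusted p = 0.00252), and Hoxa7 from 8.32 to 8.55 (median 8.37) against 7.32 to 8.00 (median 7.76), a rise of 0.70 ± 0.13 (adjusted p = 0.0105). In all 4 genes the groups were separate.

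Of the 39 mouse Hox genes, 30 had a tested probeset, and 4 of these rose, none fell and 26 did not pass, beside 0.47% of all genes. The median over the 30 was 0.18, and 21 of them had a difference above 0. The mean level of the 30 genes ranged from 6.04 to 6.35 in the Cpd1 mice and from 5.62 to 5.96 in the vehicle mice. The called genes sit near the middle and towards the 5′ end of their clusters. Next to them, Hoxa11 differed by 1.23 ± 0.33 (adjusted p = 0.099), with Cpd1 mice from 1.99 to 5.10 and vehicle mice from 1.59 to 2.90, and Hoxc9 by 0.49 ± 0.13 (adjusted p = 0.099). Hoxa2 (0.50, adjusted p = 0.0781) and Hoxa5 (0.34, adjusted p = 0.124) did not pass either. The 13 genes numbered 9 to 13 had a median difference of 0.34 and the 17 numbered 1 to 8 one of 0.15, and by cluster the medians were 0.50 for Hoxa, 0.05 for Hoxb, 0.16 for Hoxc and 0.23 for Hoxd. Among other regulators of body position, such as Tbx15 and Irx3, none of 22 passed, and their median was 0.05.

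**Figure D2:**
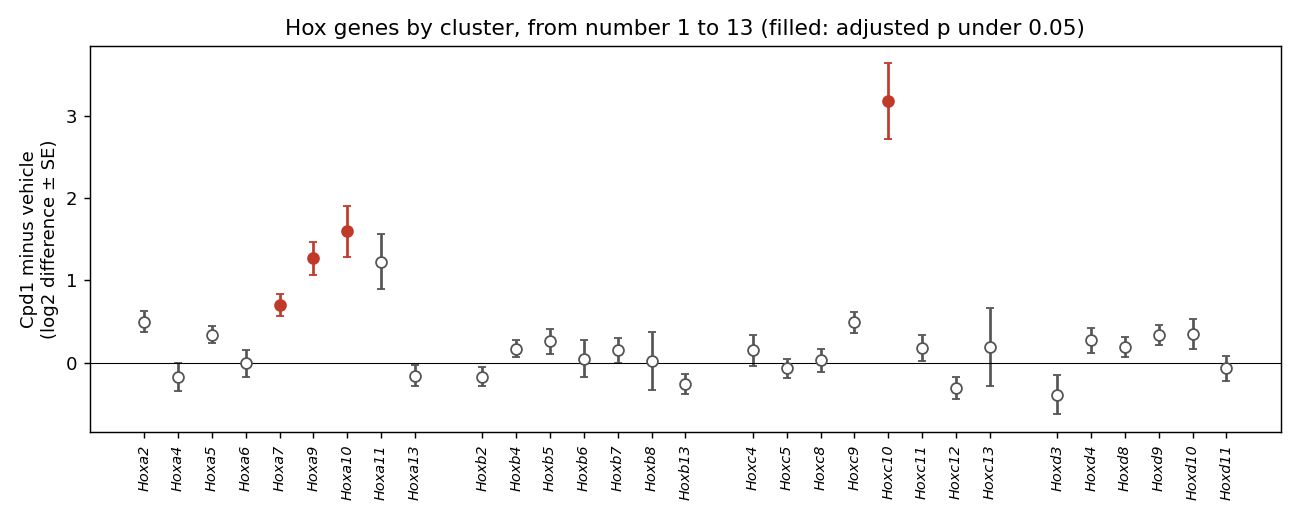
Log2 difference between Cpd1 and vehicle mice (vertical, with the SE of limma as bars) for the 30 tested Hox genes, ordered by cluster and number (horizontal). The 4 filled points, Hoxa7, Hoxa9, Hoxa10 and Hoxc10, passed an adjusted p of 0.05, with differences of 0.70, 1.27, 1.6 and 3.18.

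The 3 called genes of the Hoxa cluster are neighbours on 1 strand, and their promoters are shown because they rose together. Each window runs from 250 bases before to 50 bases after a transcript start, from RefSeq on GRCm38.p6. Capitals mark 4 motifs that were searched on both strands. The first was TTTATG, a site of caudal-type homeodomain proteins, which occurs in 11.9% of the 32851 promoter windows of the table. The TATA box was searched as TATAAA, which 13.6% of the windows hold. The CCAAT box, searched by these 5 letters, is in 37.4% of the windows, and the GC box, searched as GGGCGG, in 35.7%. Hoxa10 has 2 starts in the table, at chr6:52240805-52241104, minus strand and chr6:52234890-52235189, minus strand, Hoxa9 has chr6:52227321-52227620, minus strand, and Hoxa7 has chr6:52218524-52218823, minus strand. Hoxc10 has no window there and is named only. TTTATG was found in the Hoxa7 window alone, at 2 places, and no motif was found in all 4 windows.
Hoxa10 first start: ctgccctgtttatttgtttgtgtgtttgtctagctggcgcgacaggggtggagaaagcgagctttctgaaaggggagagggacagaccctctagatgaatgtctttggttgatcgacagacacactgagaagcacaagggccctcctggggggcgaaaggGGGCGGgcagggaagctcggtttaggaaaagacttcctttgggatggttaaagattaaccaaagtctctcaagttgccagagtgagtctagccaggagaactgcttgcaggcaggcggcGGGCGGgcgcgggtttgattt
Hoxa10 second start: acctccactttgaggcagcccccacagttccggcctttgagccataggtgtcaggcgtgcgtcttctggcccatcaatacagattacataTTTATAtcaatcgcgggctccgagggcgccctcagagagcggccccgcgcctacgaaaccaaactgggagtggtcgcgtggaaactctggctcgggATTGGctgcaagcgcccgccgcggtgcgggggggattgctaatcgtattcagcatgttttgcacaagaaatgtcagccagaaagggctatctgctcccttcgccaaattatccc
Hoxa9: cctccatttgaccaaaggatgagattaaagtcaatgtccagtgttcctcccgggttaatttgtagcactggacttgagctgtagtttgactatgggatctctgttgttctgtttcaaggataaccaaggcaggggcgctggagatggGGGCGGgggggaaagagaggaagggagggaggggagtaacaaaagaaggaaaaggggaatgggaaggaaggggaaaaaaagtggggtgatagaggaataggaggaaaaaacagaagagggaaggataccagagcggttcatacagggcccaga
Hoxa7: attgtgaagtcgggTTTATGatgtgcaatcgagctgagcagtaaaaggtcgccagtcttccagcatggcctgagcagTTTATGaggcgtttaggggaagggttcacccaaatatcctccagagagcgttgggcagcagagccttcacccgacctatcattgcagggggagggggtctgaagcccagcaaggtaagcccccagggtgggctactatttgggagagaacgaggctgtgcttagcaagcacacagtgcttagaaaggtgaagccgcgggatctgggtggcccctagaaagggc

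Akr1c21, an aldo-keto reductase that reduces 3-keto and 17-keto groups of steroids, had the smallest p of all probesets. It ranged from 6.60 to 8.57 (median 7.67) with Cpd1 and from 3.60 to 5.93 (median 4.76) with vehicle, with no overlap. The rise was 2.99 ± 0.34, or 7.97-fold (adjusted p = 8.55e-05). It was the 1 of 11 tested genes of the Akr1 family that passed. Its relative Akr1cl had a difference of -1.01 ± 0.26 (adjusted p = 0.0874), and the median of the family was 0.08. Of 26 genes of steroid metabolism and steroid receptors, 1 passed, namely Cyp11a1, which cleaves the side chain of cholesterol in the first step of steroid synthesis. Cyp11a1 lay between 6.64 and 7.69 (median 7.06) with Cpd1 and between 5.50 and 6.84 (median 6.44) with vehicle, and it rose by 0.82 ± 0.17 (adjusted p = 0.0361) although the groups overlapped. Its call was lost in 11 of 29 alternative settings. Sult1e1, the sulfotransferase of oestrogens, differed by -1.35 ± 0.46 (adjusted p = 0.194), and the median of the list was 0.07.

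Hamp2, a second hepcidin gene next to Hamp, whose product is the hormone that closes the iron exporter ferroportin, was the third largest increase. It ranged from 8.48 to 10.13 (median 9.46) with Cpd1 and from 5.02 to 7.97 (median 6.67) with vehicle. The groups did not overlap, and the rise was 2.93 ± 0.49, or 7.64-fold (adjusted p = 0.00506). Hamp itself lay under the filter on low values and was left out of the main test. Its Cpd1 mice ranged from 2.87 to 4.23 (median 3.64) and its vehicle mice from 1.72 to 3.17 (median 2.25). In the fit with no filter Hamp also rose, by 1.17 ± 0.20 (adjusted p = 0.00757 by limma). How far the probes tell this closely related pair apart was not tested. Of 23 genes of iron handling in the main test, Hamp2 was the 1 that passed, with a list median of 0.08. The haem oxygenase Hmox1 differed by -1.06 ± 0.30 (adjusted p = 0.127).

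The promoter windows of Hamp2 (chr7:30924132-30924431, minus strand) and Hamp (chr7:30943980-30944279, minus strand) are shown as a pair, because the called gene and its neighbour are close relatives. Of 297 aligned bases 276 are identical, which is 92.9%, and the 21 bases that differ are in capitals. Bases without a partner in the alignment are in small letters too.
Hamp2: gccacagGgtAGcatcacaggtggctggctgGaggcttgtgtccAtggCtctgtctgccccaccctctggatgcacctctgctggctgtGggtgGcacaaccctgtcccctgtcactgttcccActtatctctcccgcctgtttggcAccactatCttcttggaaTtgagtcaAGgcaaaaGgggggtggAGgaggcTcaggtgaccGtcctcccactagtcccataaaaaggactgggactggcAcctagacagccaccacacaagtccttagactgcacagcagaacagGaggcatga
Hamp: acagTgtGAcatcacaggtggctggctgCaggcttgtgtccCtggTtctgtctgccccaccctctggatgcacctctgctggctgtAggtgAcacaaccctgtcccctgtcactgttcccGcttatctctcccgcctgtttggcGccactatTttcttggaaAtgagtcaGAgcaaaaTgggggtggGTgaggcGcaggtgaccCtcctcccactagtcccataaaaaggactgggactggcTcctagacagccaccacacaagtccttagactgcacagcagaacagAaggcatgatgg

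Serpinb6e and Serpinb6d, relatives of the intracellular serine protease inhibitor SERPINB6, moved in opposite directions. Serpinb6e ranged from 7.24 to 8.52 (median 7.99) with Cpd1 and from 4.29 to 6.59 (median 5.73) with vehicle, without overlap, and rose by 2.29 ± 0.32, or 4.90-fold (adjusted p = 0.0011). Serpinb6d ranged from 6.88 to 9.47 (median 8.46) with Cpd1 and from 9.15 to 10.89 (median 10.32) with vehicle, where the groups overlapped slightly, and fell by 1.86 ± 0.34, or 3.63-fold (adjusted p = 0.0128). Between them on chromosome 13 the RefSeq table lists only 3 pseudogenes. The relatives Serpinb6a, Serpinb6b and Serpinb6c had means of 10.50, 6.31 and 9.48 with Cpd1 against 10.67, 6.04 and 9.91 with vehicle. Cross-hybridisation between such close relatives was not tested. Their promoter windows, Serpinb6e at chr13:33843359-33843658, minus strand and Serpinb6d at chr13:33661155-33661454, plus strand, are shown because these relatives moved apart. For Serpinb6d this is the first window listed, and no other start was compared. Of 277 aligned bases 216 are identical (78.0%), with the 61 that differ in capitals. Bases without a partner in the alignment are in small letters too.
Serpinb6e: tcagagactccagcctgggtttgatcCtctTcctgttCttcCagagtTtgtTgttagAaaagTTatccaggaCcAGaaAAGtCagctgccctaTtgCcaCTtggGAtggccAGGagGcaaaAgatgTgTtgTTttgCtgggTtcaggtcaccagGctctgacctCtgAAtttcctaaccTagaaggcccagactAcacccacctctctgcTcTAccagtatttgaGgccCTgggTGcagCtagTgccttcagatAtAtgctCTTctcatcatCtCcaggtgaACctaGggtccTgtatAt
Serpinb6d: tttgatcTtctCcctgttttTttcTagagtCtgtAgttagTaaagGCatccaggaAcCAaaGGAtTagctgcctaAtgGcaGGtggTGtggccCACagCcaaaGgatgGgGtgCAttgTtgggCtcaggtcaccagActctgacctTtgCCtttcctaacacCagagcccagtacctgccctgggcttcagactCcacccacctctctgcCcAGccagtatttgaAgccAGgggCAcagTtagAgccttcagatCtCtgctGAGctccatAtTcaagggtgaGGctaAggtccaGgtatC

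Further increases without overlap were smaller. Sfrp4, a secreted protein that binds Wnt ligands, ranged from 6.96 to 8.13 (median 7.72) with Cpd1 and from 5.79 to 6.33 (median 6.00) with vehicle, a rise of 1.64 ± 0.30 (adjusted p = 0.0128). Sp5, a transcription factor induced by Wnt signalling, ranged from 6.12 to 6.84 (median 6.47) against 5.14 to 5.69 (median 5.57), a rise of 0.99 ± 0.13 (adjusted p = 0.000584). Slc1a1, a glutamate transporter, ranged from 7.69 to 8.53 (median 7.85) against 7.0 to 7.35 (median 7.24), a rise of 0.74 ± 0.12 (adjusted p = 0.00378). Pcp4, a small calmodulin-binding protein, rose by 0.72 ± 0.16 (adjusted p = 0.0467), and Susd5 by 0.72 ± 0.16 (adjusted p = 0.0401). The calls of Pcp4 and Susd5 were lost in 21 and 15 of 29 alternative settings, most of them fits that left out 1 mouse. A second probeset of Slc1a1 had 0.40 ± 0.19 (adjusted p = 0.36) with overlapping groups.

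Among the other called genes, named here after their values were seen, several encode secreted signals or regulators. Wnt10a (0.67 ± 0.14) and Wnt9a (0.50 ± 0.10), both Wnt ligands, and Inhbb (0.48 ± 0.07), a subunit of activin B, rose with no overlap between the groups. With some overlap there were rises of Plppr4 (1.21 ± 0.25), Irx6 (1.15 ± 0.20), a homeobox factor, Orm2 (1.15 ± 0.21), an acute-phase plasma protein, Nptx2 (1.08 ± 0.22), Penk (0.58 ± 0.12), the precursor of the enkephalins, Cdkn1c (0.52 ± 0.10), a cell cycle inhibitor, and Tnfaip3 (0.46 ± 0.10), which restrains NF-kappaB signalling.

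Fewer genes fell, and of the 18 named genes that did, 4 had separate groups. Odf3l2, a relative of an outer dense fibre protein of sperm tails, ranged from 4.77 to 5.67 (median 5.43) with Cpd1 and from 6.01 to 8.19 (median 7.31) with vehicle, and fell by 2.05 ± 0.27, or 4.13-fold (adjusted p = 0.000584). Tnmd, tenomodulin, a membrane protein of tendon and fat, ranged from 8.13 to 8.80 (median 8.36) against 8.87 to 9.83 (median 9.11) and fell by 0.77 ± 0.12 (adjusted p = 0.00402). Epha3, a receptor of ephrins, ranged from 4.09 to 5.18 (median 4.98) against 5.25 to 6.33 (median 5.57), a fall of 0.79 ± 0.18 (adjusted p = 0.0467) that did not pass in 19 of 28 alternative settings. The RIKEN transcript C530044C16Rik ranged from 5.68 to 6.54 (median 6.17) against 6.55 to 7.35 (median 6.94), a fall of 0.76 ± 0.15 (adjusted p = 0.0147).

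With overlap there were falls of 1700016C15Rik by 1.58 ± 0.30 (adjusted p = 0.0153), Rspo2, which strengthens Wnt signalling, by 1.40 ± 0.26 (adjusted p = 0.0145), Dupd1, a phosphatase of muscle, by 1.17 ± 0.19 (adjusted p = 0.00389), and Neto2, a subunit of kainate receptors, by 1.14 ± 0.25 (adjusted p = 0.0372). Rspo2 lay between 3.44 and 4.95 (median 4.14) with Cpd1 and between 4.86 and 6.40 (median 5.71) with vehicle, so that the ranges just touch. Cadps, Lrtm2 and Osbpl10 fell by 0.81, 0.71 and 0.65. The calls of Cadps, Lrtm2 and Neto2 were lost in 19, 16 and 15 of 28 alternative settings. A second probeset of Neto2 had a difference of -0.49 ± 0.21 (adjusted p = 0.306). Among the 5 falling probesets without a gene name, the largest differences were -1.94 ± 0.31 and -1.75 ± 0.26.

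**Figure D3:**
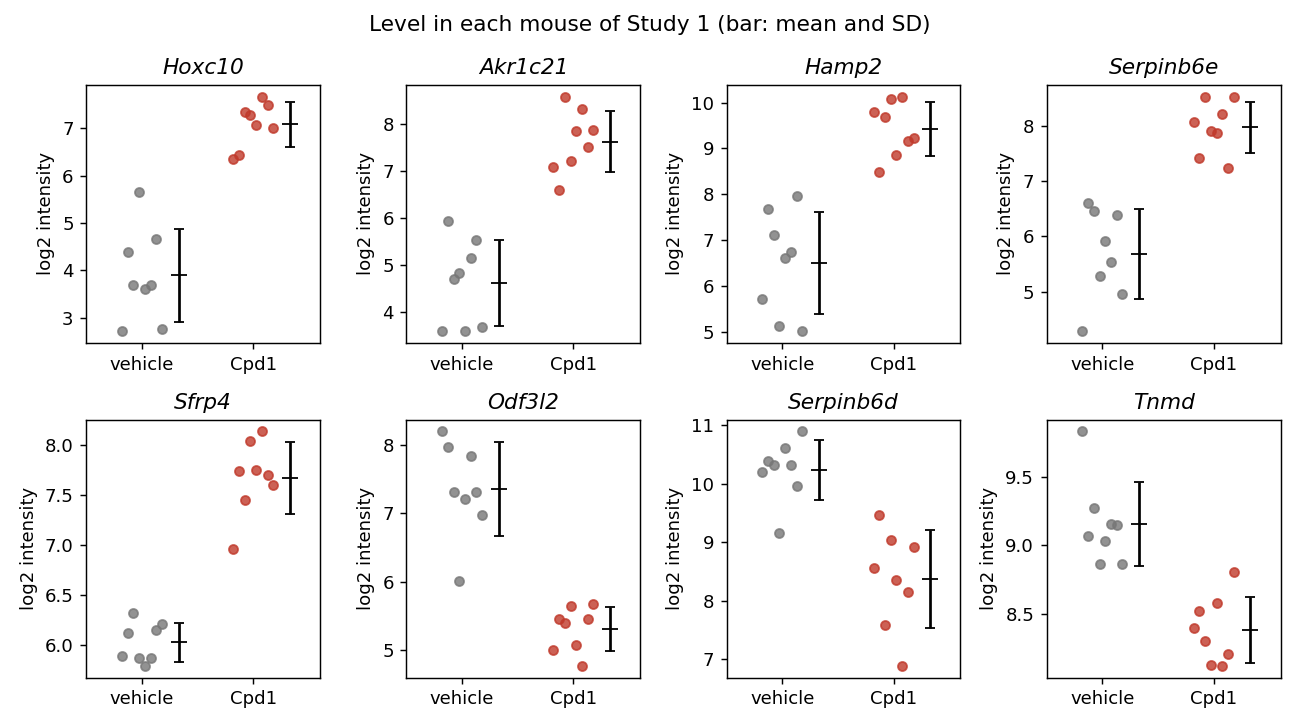
Log2 intensity (vertical) of 8 genes in each of the 8 vehicle mice (grey) and 8 Cpd1 mice (red) of Study 1, with the mean and SD of each group as bars. The groups are separate in 7 of the 8 panels, and in Serpinb6d 1 vehicle mouse lies within the range of the Cpd1 mice.

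The target of the drug and its partner did not pass. Dgat1 lay between 10.70 and 11.12 (median 11.02) with Cpd1 and between 9.85 and 11.10 (median 10.91) with vehicle, a difference of 0.16 ± 0.15 (adjusted p = 0.684). Dgat2 lay between 10.39 and 10.68 against 8.97 and 10.69, a difference of 0.21 ± 0.16 (adjusted p = 0.593). Vehicle replicate 4 was the lowest vehicle mouse in both, and without it the differences were 0.02 and 0.02. These levels are of RNA and say nothing of the activity of the enzyme.

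None of the genes of lipid synthesis that were followed passed, beside 0.47% of all genes. At that share, lists this short often hold no call. In triglyceride and wax ester synthesis 0 of 19 genes passed, with a median of 0.15 and with the acyltransferases Mogat2 (0.58 ± 0.24, adjusted p = 0.293) and Awat2 (0.43 ± 0.24, adjusted p = 0.447) at the largest differences. In fatty acid synthesis, elongation and desaturation it was 0 of 26, with a median of 0.04. Fasn, the fatty acid synthase, had 0.67 ± 0.24 (adjusted p = 0.214) and Fads2, a desaturase, -0.66 ± 0.22 (adjusted p = 0.187). Cholesterol synthesis had 0 of 18 with a median of -0.01, fatty acid oxidation 0 of 21 with a median of 0.17, and lipid droplets and lipolysis 0 of 20 with a median of 0.10. Acox3, a peroxisomal oxidase of branched fatty acids, had the smallest adjusted p of these lists, 0.0734, at 0.52 ± 0.13.

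Among 23 tested genes of the sebaceous gland 0 passed, beside 0.47% of all genes, and the median difference was 0.02. The mean level of the list was 8.86 to 9.04 in the Cpd1 mice and 8.33 to 9.12 in the vehicle mice, where the lowest value was that of vehicle replicate 4 and the next was 8.73. Acsbg1, an acyl-CoA synthetase, came closest with 0.45 ± 0.10 (adjusted p = 0.0513). Scd3, a desaturase of sebaceous glands, ranged from 10.48 to 11.03 with Cpd1 and from 8.88 to 10.61 with vehicle (0.61 ± 0.42, adjusted p = 0.556), and its other probeset had 0.14 ± 0.43. These SEs pool the Cpd2 mice of the fit, and the SD of Scd3 was 1.49 with Cpd2, 0.18 with Cpd1 and 0.58 with vehicle. Of the 8 Cpd1 mice 6 lay above all vehicle mice for Scd3, while none of 29 alternative settings called it. Elovl5 (0.06 ± 0.09), Acox2 (0.04 ± 0.24), Aox4 (-0.27 ± 0.28) and Hsd17b2 (-0.21 ± 0.19) did not pass, nor did any of the 38 tested genes of the study's marker set for gland atrophy. That set was chosen by the study with a high p for Cpd1 in these same mice, so the count is a description and not independent evidence.

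In the immune lists that were followed, few genes were called, beside 0.47% of all genes. Called genes outside them, such as Tnfaip3, Orm2 and Tirap (-0.53 ± 0.09, adjusted p = 0.00506 by limma), are not counted here. The other probesets of Tirap, at -0.29 and -0.37, did not pass. Ccl1, a chemokine that draws T cells, lay between 4.95 and 6.03 (median 5.52) with Cpd1 and between 4.87 and 5.57 (median 5.24) with vehicle, a difference of 0.27 ± 0.20 (adjusted p = 0.582). Cxcl16 (0.19 ± 0.14) and Defb1, an antimicrobial beta-defensin (-0.16 ± 0.09), did not pass either. In total 0 of 26 chemokines, 0 of 14 T cell genes, 0 of 14 macrophage genes and 0 of 20 interferon response genes passed, with medians of 0.01, 0.00, -0.07 and 0.10. At the share over all genes, lists this short often hold no call. Of 25 cytokines and receptors 1 rose, the decoy receptor Il1r2 (0.38 ± 0.08, adjusted p = 0.0467), with Cpd1 mice from 11.03 to 11.36 and vehicle mice from 10.47 to 11.01, and this call was lost in 19 of 29 alternative settings. In the mast cell list 0 of 8 passed, while 6 had an unadjusted p under 0.05 on the higher side and the median was 0.47. Cpa3, a protease of mast cell granules, had 0.55 ± 0.16 (adjusted p = 0.124) and Fcer1a, a chain of the IgE receptor, 0.70 ± 0.29 (adjusted p = 0.297).

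Within the lists, the remaining calls were of contractile, matrix, stress and cytochrome P450 genes. Other called genes outside the lists, such as Nuak1 and Rab6b, are not described. Of 14 genes of smooth muscle and pericytes 2 rose, Actg2 (0.55 ± 0.10, adjusted p = 0.014) and Acta2 (0.44 ± 0.09, adjusted p = 0.0361), which encode smooth muscle actins, and the list median was 0.20. Actg2 lay between 9.47 and 9.83 with Cpd1 and between 8.71 and 9.33 with vehicle. Cnn1 (0.81 ± 0.19, adjusted p = 0.0599) and Myh11 (0.59 ± 0.15, adjusted p = 0.0868) did not pass. Of 21 fibroblast and collagen genes 1 fell, the type I collagen gene Col1a2 (-0.30 ± 0.06, adjusted p = 0.0386), with a list median of -0.09. Col1a2 lost its call in 17 and Acta2 in 14 of 29 alternative settings. For the type III collagen gene Col3a1 the probesets disagreed, with -0.60 ± 0.11 (adjusted p = 0.014) for one and -0.09 ± 0.05 (adjusted p = 0.459) for the other, which represents the gene in the list. Of 19 immediate early and heat shock genes 2 rose, Dusp1, a phosphatase of MAP kinases (0.68 ± 0.12, adjusted p = 0.00627), and the small heat shock protein Hspb1 (0.47 ± 0.09, adjusted p = 0.017). Dusp1 ranged from 9.85 to 10.16 against 9.02 to 9.56, and Fos had 0.78 ± 0.20 (adjusted p = 0.0868). Of 19 cytochromes P450 that handle foreign compounds or retinoids 1 rose, Cyp26b1, which breaks down retinoic acid (0.49 ± 0.10, adjusted p = 0.0344), while Cyp2e1 had the larger difference of 1.70 ± 0.53 (adjusted p = 0.159) with vehicle mice from 4.23 to 10.12. The call of Cyp26b1 was lost in 13 of 29 alternative settings.

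Lists of hair, fat and muscle genes held no call, beside 0.47% of all genes, and spread widely among the mice. The 20 genes of hair shaft and inner root sheath had the largest list median, 1.79, and 0 passed, with list means from 3.70 to 9.72 in the Cpd1 mice and from 3.77 to 11.14 in the vehicle mice. Krt26 showed 2.62 ± 1.27 (adjusted p = 0.379) and Krt27 2.41 ± 1.53 (adjusted p = 0.515). The vehicle mouse at 11.14 was replicate 4, and without it the highest vehicle value was 8.11. None of 15 white adipocyte genes passed (median 0.25, all 15 above 0), where vehicle replicate 4 had a list mean of 9.25 and the other vehicle mice 10.48 to 10.86 beside 10.58 to 10.84 with Cpd1. None of 26 skeletal muscle genes passed (median -0.16), with list means from 10.20 to 10.82 with Cpd1 and, without vehicle replicate 4 at 9.14, from 10.64 to 10.95 with vehicle. Over all 45 lists 9 held a called gene and 36 none. Melanocyte genes (0 of 10, median -0.41) and cell division genes (0 of 26, median -0.24) had their highest vehicle level in replicate 4. With the muscle list as a covariate 172 probesets passed, the 94 among them, and the part of hair, fat and melanocyte content in the calls was not tested.

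**Figure D4:**
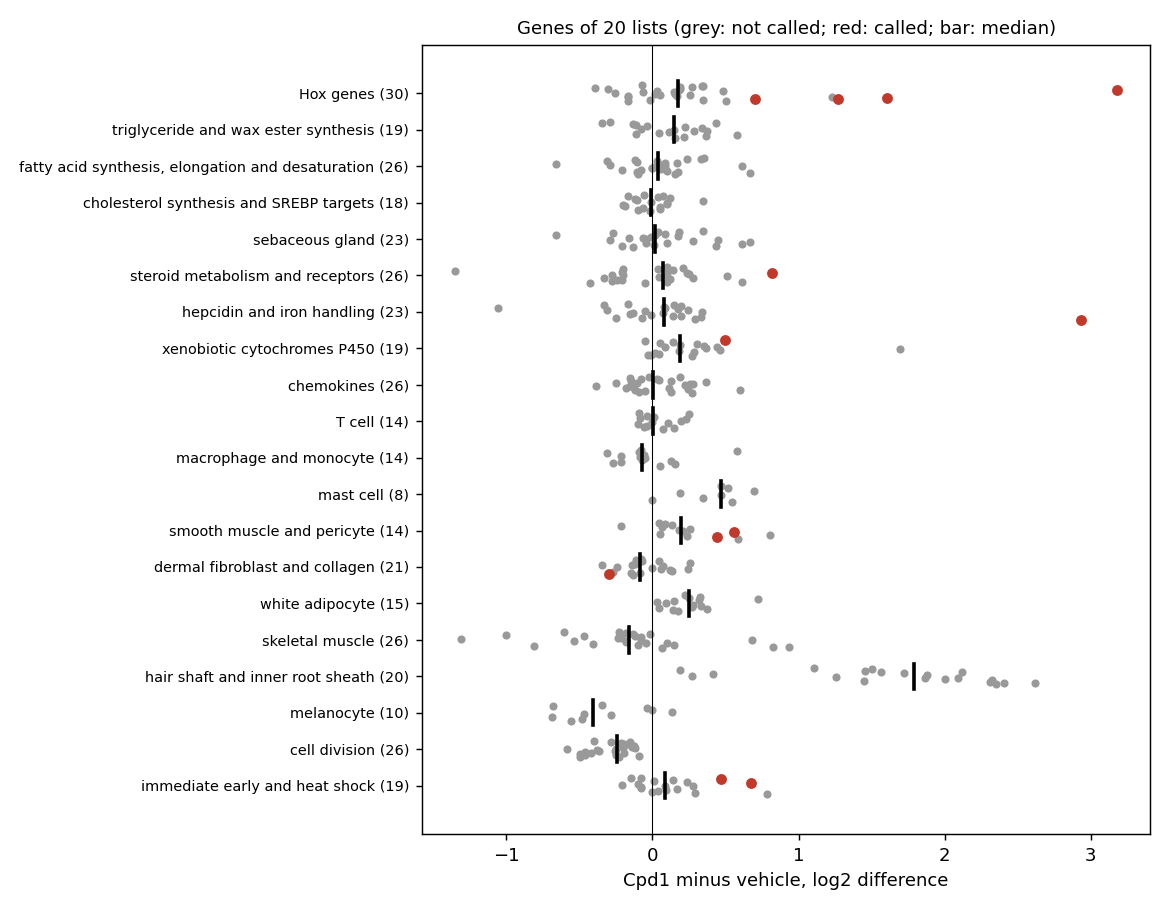
Log2 difference between Cpd1 and vehicle mice (horizontal) of each tested gene in 20 gene lists (vertical, with the number of genes), with called genes in red and the list median as a black bar. Most medians lie near 0, the hair shaft list stands at 1.79 with no called gene, and the Hox list holds 4 called genes.

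Cpd1 and Cpd2 were given in the same study, and their comparisons with vehicle share the vehicle mice. Between the compounds directly, 4964 of 28789 probesets differed (17.2%). Hoxc10 was lower by 3.28 ± 0.46 with Cpd2 than with Cpd1 (adjusted p = 4.83e-05), Akr1c21 by 4.16 ± 0.34 (adjusted p = 1.08e-08), Hamp2 by 4.21 ± 0.49 (adjusted p = 2.92e-06) and Serpinb6e by 3.87 ± 0.32 (adjusted p = 1.52e-08). Side by side against vehicle, Hoxc10 showed 3.18 with Cpd1 and -0.09 with Cpd2, Akr1c21 2.99 and -1.17, Hamp2 2.93 and -1.27, and Serpinb6e 2.29 and -1.57. Serpinb6d fell with either compound, by 1.86 and by 5.39, and was lower with Cpd2 than with Cpd1 by 3.53 ± 0.34 (adjusted p = 2.05e-07). Ccl1 was higher with Cpd2 than with Cpd1 by 4.04 ± 0.20 (adjusted p = 5.99e-13) and Scd3 lower by 4.29 ± 0.42 (adjusted p = 2.44e-07). For some genes the difference between the compounds did not pass, as for Odf3l2 (0.52 ± 0.27, adjusted p = 0.186), Dusp1 (0.00 ± 0.12, adjusted p = 0.994) and Hspb1 (-0.04 ± 0.09, adjusted p = 0.823). Dusp1 was 0.68 above vehicle with each, and Odf3l2 2.05 and 1.53 below it. The dose named for the histology and the skin level reported by the study are lower for Cpd1 than for Cpd2. The compound, its dose and its exposure in skin therefore cannot be told apart in these differences.

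Cpd18, the other skin-negative inhibitor, has its own vehicle mice in Study 4. There 1 of 28789 probesets passed (0.00347%) and 2291 had an unadjusted p under 0.05. None of the 94 probesets called for Cpd1 passed with Cpd18. Of the 71 higher ones, 53 had a difference above 0 with Cpd18, beside 51.7% of all tested, with a median of 0.10, and of the 23 lower ones 5 did, with a median of -0.15. Hoxc10 differed by 0.00 ± 0.14 with Cpd18, Akr1c21 by 0.30 ± 0.26, Hamp2 by -0.08 ± 0.45 and Serpinb6e by -0.10 ± 0.27. When the difference between the effects of Cpd1 and Cpd18 was tested over all 48 arrays with limma, 0% of the probesets passed, the smallest adjusted p was 0.0928, and 1422 had an unadjusted p under 0.05. The difference of effects was 3.19 ± 0.63 for Hoxc10, 2.69 ± 0.51 for Akr1c21 and -2.07 ± 0.41 for Odf3l2, each with an adjusted p of 0.0928. Study 4 had 4 mice per group, and a different dose or exposure cannot be told apart from the compound.

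Set against all 9 groups of the series, some of the called genes stood apart in the vehicle mice of Study 1 and not in the Cpd1 mice. For Hoxc10, Hoxa10 and Sfrp4 the Cpd2 mice of Study 1 stood with those vehicle mice, so that within the study Cpd1 differed from both. Hoxc10 had a mean of 7.08 ± 0.47 (SD, n = 8) with Cpd1, and of 3.90 ± 0.99 with vehicle and 3.80 with Cpd2 in the same study, while the 6 groups of the other studies had means from 6.75 to 7.26, their vehicle groups included (7.12 and 6.76). For Hoxa10 the means were 8.68 for Cpd1, 7.08 and 6.94 for vehicle and Cpd2 of Study 1, and 7.93 to 8.94 elsewhere. Odf3l2 had a mean of 7.35 in the vehicle mice of Study 1 and of 5.24 to 5.84 in each of the other 8 groups, Cpd1 at 5.31 among them. Sfrp4 stood at 7.67 with Cpd1, at 6.03 and 6.07 with vehicle and Cpd2 of Study 1, and at 7.77 and 7.42 in the vehicle groups of Studies 2 and 4. The labels do not say whether the studies were run together, so levels between them carry the difference of study as well.

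Akr1c21, Hamp2 and Serpinb6e had another order. Akr1c21 was highest with Cpd1 (7.62 ± 0.65), followed by Cpd18 (6.90), the vehicle groups of Studies 2 and 4 (6.69 and 6.60) and the vehicle group of Study 1 (4.63 ± 0.91), and all 4 groups given Cpd2 or Cpd6 were at or under 3.46. Hamp2 had 9.43 with Cpd1, 7.36 and 7.24 in the vehicle groups of Studies 2 and 4, 7.17 with Cpd18, 6.49 in the vehicle group of Study 1 and 4.20 to 5.22 with Cpd2 or Cpd6. Serpinb6e had 7.97 with Cpd1, 6.75, 6.77 and 5.68 in the vehicle groups of Studies 2, 4 and 1, and 3.11 to 4.11 with Cpd2 or Cpd6. Serpinb6d was highest in the vehicle mice of Study 1 (10.23), then with Cpd1 (8.37), then in the other vehicle groups (7.36 and 7.11) and with Cpd18 (6.15), and lowest with Cpd2 or Cpd6 (2.43 to 4.84). The Study 2 vehicle mean lay nearer to the Cpd1 mean than to the vehicle mean of Study 1 in 21 of the 23 lower and 39 of the 71 higher probesets, beside 50.6% of all tested, and the Study 4 vehicle mean in 20 and 32, beside 49.7%. These counts use the groups by which the probesets were called and are a description.

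**Figure D5:**
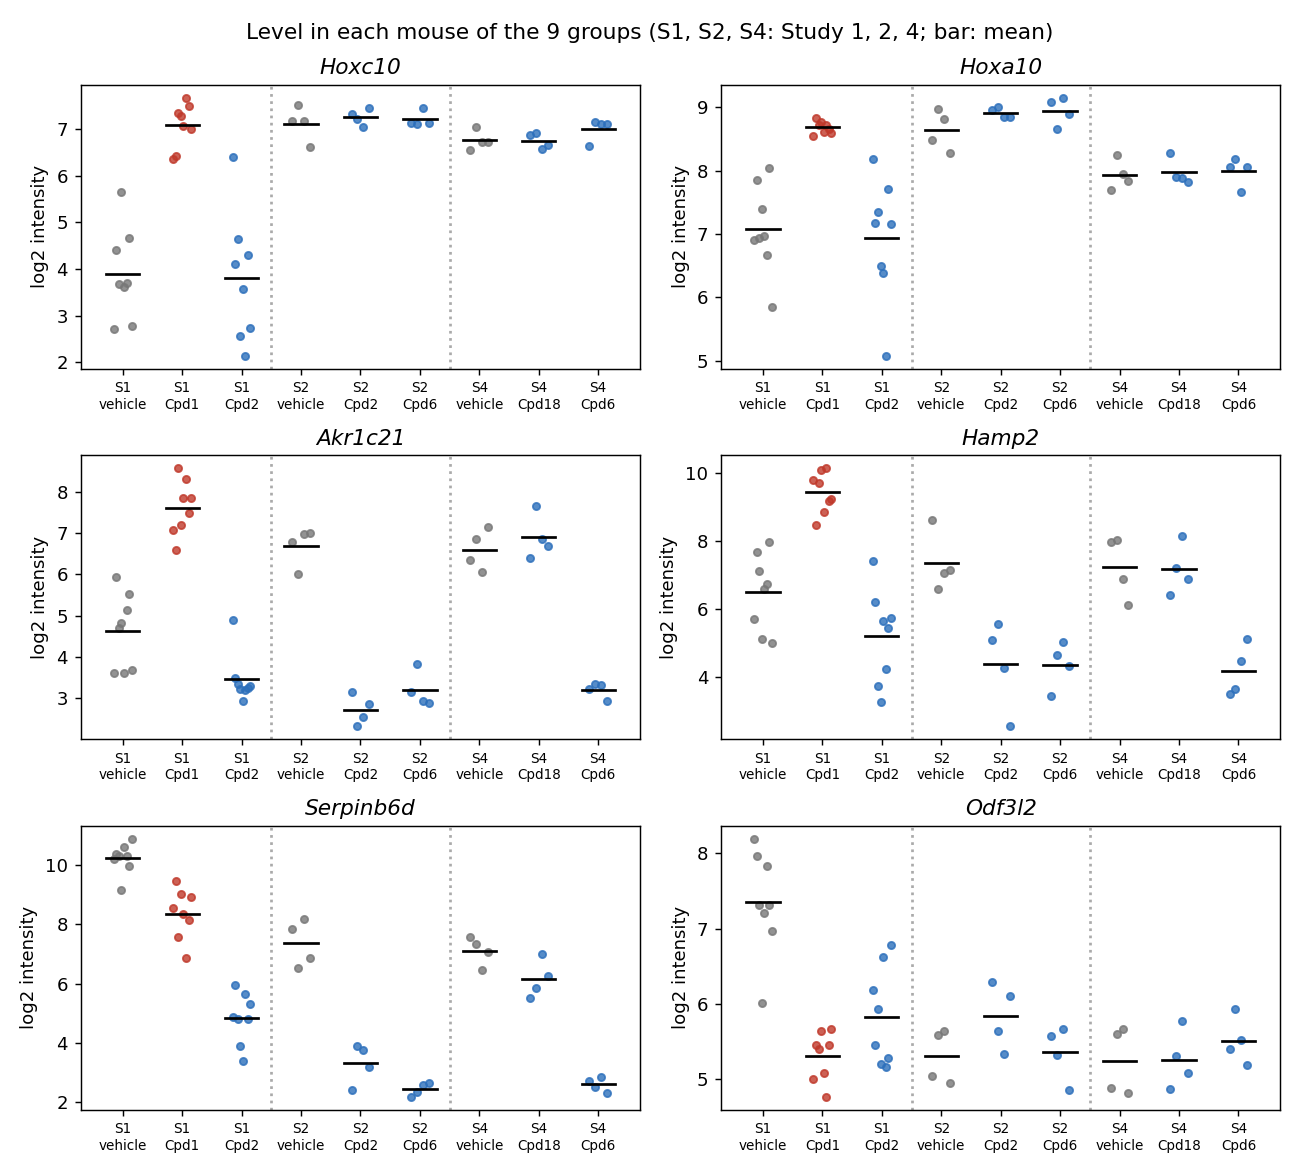
Log2 intensity (vertical) of 6 genes in each mouse of the 9 groups (horizontal, by study, with vehicle in grey, Cpd1 in red and other compounds in blue), with the group mean as a bar. Hoxc10 and Hoxa10 are low in the vehicle and Cpd2 mice of Study 1, Odf3l2 is high in the vehicle mice of Study 1, and Akr1c21 and Hamp2 are low wherever Cpd2 or Cpd6 was given.

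A Hox score was taken as the mean of Hoxa9, Hoxa10 and Hoxc10. These genes were called for the same comparison, so the distance of the groups on the score is not independent evidence and does not stand for all Hox genes. The score ran from 6.93 to 7.45 in the Cpd1 mice and from 4.32 to 6.02 in the vehicle mice, with means of 7.25 ± 0.20 and 5.23 ± 0.58 (SD). With this score as a covariate in limma, 0 of 28786 probesets passed and 2552 had an unadjusted p under 0.05. The differences of Akr1c21, Hamp2 and Serpinb6e were then 1.46 ± 0.46, 0.99 ± 0.71 and 0.67 ± 0.40, while those of Odf3l2 (-2.14 ± 0.47 with the score), Sp5 (0.91 ± 0.23), Actg2 (0.62 ± 0.18) and Cyp11a1 (0.93 ± 0.30) were -2.05, 0.99, 0.55 and 0.82 without it. The slope of the score is estimated within groups. As the score does not overlap between the groups, these differences reach beyond the mice measured, and their SEs are wider than without it. The count of 0 therefore cannot tell a smaller difference from lost precision. The part of the site of the biopsy in these differences was not tested, since no label gives it beyond dorsal skin.

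Within each group the same score could be set against single genes. Over 16 relations, 8 genes in each of the groups of 8 mice, none passed after adjustment by 2-sided exact permutation. In the vehicle mice Akr1c21 had r = 0.802 (exact permutation p = 0.0204, adjusted p = 0.18) and rho = 0.802 (exact permutation p = 0.0222, adjusted p = 0.356), and without the 2 mice farthest from the median score r was 0.724. Serpinb6d in the vehicle mice had r = -0.681 (exact permutation p = 0.0472, adjusted p = 0.252) and rho = -0.643 (exact permutation p = 0.0962, adjusted p = 0.46), with r = -0.548 without these 2 mice. In the Cpd1 mice 1700016C15Rik had r = -0.798 (exact permutation p = 0.0225, adjusted p = 0.18) and rho = -0.643 (exact permutation p = 0.0962, adjusted p = 0.46), with r = -0.594 without the 2 farthest. For Odf3l2 r was 0.138 in the Cpd1 mice and -0.20 in the vehicle mice (exact permutation p = 0.737 and 0.649).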

How the data were processed

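The authors measured skin RNA on a custom Affymetrix array and summarised it with RMA (version not given in the sources used here); the table as deposited holds linear intensities, one value per probeset and mouse, and no column was left unmapped. Of 38385 probesets 24478 name 1 gene. Groups came from the sample titles. Here intensities were turned to log2 and the dimmest probesets by 48-array mean (25th percentile, 2.93) were left out. This stands in for the detection calls used by the authors, which cannot be made from summarised values. The 24 arrays of Study 1 were fitted with limma 3.58.1 in R 4.3.3 (1 mean per group, eBayes with an intensity trend, Benjamini-Hochberg over all tested probesets, adjusted p under 0.05), tested on simulated data first. Cpd18 was fitted on the 12 arrays of Study 4. Correlations used exact permutation (scipy 1.17.1). No label tells litters or cages, so p-values measure the spread between these mice, and the number of arrays limits the precision.

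Named genes are the 12 largest increases and decreases, with separate groups first, the genes the study names, every called Hox gene and up to 4 called members of each of 45 lists. Members and lists were chosen with earlier results of these data known. A gene of a list is its probeset with the highest mean. Alternatives were other filters, scalings, arrays in the fit, array weights, no trend, the methods' test, covariates, the replicate number as a block, and leaving out each mouse. Hoxc10 and other genes without a promoter window are named only.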

Additional observations from a re-analysis of the deposited data

Results flagged for a closer look

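In 9 of the 86 groups of 8 mice looked at, 1 mouse lay far from the others, measured as its gap to the nearest mouse over the range of the group, where chance alone marks about 1 group in 20. Vehicle replicate 4 was the distant mouse in 4 of them, with a share of the range of 0.818 for Dgat2 (8.97, the next at 10.38), 0.648 for Dgat1 (9.85, the next at 10.66), 0.62 for Elovl5 (12.39, the next at 12.76) and 0.575 for 1700016C15Rik (4.22, the next at 5.43), lowest in each. Vehicle replicate 1 was highest for Tnmd (9.83, share 0.575) and lowest for Defb1 (10.34, share 0.673) and Hsd17b2 (8.46, share 0.559). Cpd1 replicate 6 was highest for Slc1a1 (8.53, share 0.597) and lowest for Epha3 (4.09, share 0.547). Without vehicle replicate 4, 1700016C15Rik fell by 1.79 (adjusted p = 0.00185 by limma).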

How the results depend on the processing

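The number of probesets called for Cpd1 depended on the setting, and so did the calls of single genes. The 33 called named genes kept their sign in every setting run for them, which for Hoxa9, Hoxa10 and Hoxc10 leaves out the Hox score. Of the 33, 12 were called by the methods' test, 23 with 16 arrays, 24 with quantile normalization, 25 with the replicate block, 28 with no filter, 20 to 32 with a mouse left out (20 without Cpd1 replicate 4) and 0 of the others with the Hox score. Beside 94 probesets (71 higher, 23 lower), quantile normalization called 53 (36 higher), the 16 arrays alone 59 (38 higher), 1 fit over 48 arrays 564 (421 higher, 143 lower), array weights 188 (118 higher, 70 lower) and the muscle score as covariate 172 (119 higher, 53 lower). The methods' test after Benjamini-Hochberg called 26 (19 higher, 7 lower), and at the methods' threshold without adjustment 751 (504 higher, 247 lower). With the Hox score as covariate 0, 0 and 0 passed by limma. No filter gave 71, a 50th percentile filter 104, equal medians 75 and no trend 90. With the replicate number as a block the count was 60 (38 higher, 22 lower), of which 51 were among the 94. No label says whether the numbers pair the mice. The deviations of same-numbered mice correlated over 0.1 in 2 of 8 pairs, which cannot decide it, since a shared cage or run need not show there.

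Leaving out each mouse gave 42 to 202 probesets, 28 to 166 higher and 14 to 60 lower, and 38 probesets were called in every such fit. More than 1.5-fold changes of the count came without vehicle replicate 4 (165) and vehicle replicate 8 (202), without Cpd1 replicates 4 (42), 6 (50), 7 (44) and 8 (49), and without vehicle replicates 1 (50), 2 (47), 3 (56) and 5 (47). Genes that did not pass changed sign in places, namely Dgat1 with array weights (-0.03), Ccl1 and Scd3 with the Hox score (-0.22 and -0.25), and Acox2 with array weights (-0.14), with the Hox score (-0.35) and between -0.12 and -0.01 without vehicle replicates 1 or 4 or Cpd1 replicate 8. Among lists, quantile normalization left 0 calls in steroid metabolism and in collagen genes and 1 in smooth muscle. The causes were not tested.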
